A study of Mus musculus with 4 samples.

Results

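The regions described here are the broad H3K27me3 domains of mouse rosette stem cells, taken as the CGR8 H3K27me3 regions of at least 20 kb on chromosomes 1 to 19 that overlapped an R1 H3K27me3 region by at least 1 bp. There were 765 of them, out of 14575 regions in the CGR8 H3K27me3 list and 14400 left on these chromosomes after 2 stretches were left out (chromosome 1 from 104 to 124 Mb and chromosome 11 from 3.0 to 3.1 Mb). A further 11 regions of at least 20 kb had no R1 region and are not members. The domains were chosen by their H3K27me3 width in CGR8 and their presence in R1, so both are given as descriptions. H3K4me3 was not used in the choice.

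Rosette stem cells are pluripotent cells held between the naive and the primed state. Embryonic stem cells of the line CGR8 (strain 129/Ola) and of the line R1 (strain 129) had been grown for 8 days in N2B27 and LIF, with IWP2 at 2 µM to stop WNT secretion and with the MEK inhibitor PD325901 at 1 µM. The same conditions applied to all 4 libraries, which are 1 H3K27me3 and 1 H3K4me3 library of each line. Each line is thus represented by 1 culture as far as the labels say, and a difference between CGR8 and R1 has no replicate check.

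H3K27me3 is written by Polycomb repressive complex 2, whose product is bound by Polycomb repressive complex 1 and by the complex itself, which lets the mark spread along chromatin from sites of recruitment. In mammals, recruitment is known for CpG islands that lack active transcription, and H3K4me3 is deposited at CpG islands as well. A promoter with both marks is called bivalent, and in pluripotent cells such promoters are known mainly from genes of developmental regulators. The longest Polycomb domains of embryonic stem cells are known from clusters of developmental genes, among them the Hox clusters.

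All positions are on build mm9. The H3K27me3 lists covered 134.0 Mb in CGR8 and 99.4 Mb in R1, a ratio of 1.35, and their lowest scores were 70.6 and 59.4. The H3K4me3 lists held 25241 and 24618 regions. The read totals were not given in the sources used here, so the depth behind a missing call is unknown. H3K27me3 covered 5.38% of the chromosomes up to the last called position in CGR8 and 3.98% in R1.

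The 765 domains spanned 22.2 Mb. Their median width was 25.2 kb, and the middle of the distribution ran from 22 kb at the lower quartile to 30.8 kb at the upper one. Widths of 50 kb or more were reached by 35 domains and widths above 100 kb by 5. The domains also had a higher deposited score per kb, a value from the same library and calls that set their width. Their median deposited score per kb was 38.8, against 26.3 for the 2852 shared regions of 10 to 20 kb and 19.02 for the 13635 regions that were not domains. Width and score did not pick the same regions, since 479 domains (62.6%) were among the 765 highest scores of the list.

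H3K4me3 lay in most domains. In CGR8, 615 domains (80.4%) overlapped at least 1 H3K4me3 region, against 41.1% of all 14400 regions, and in R1 the H3K4me3 list met 621 domains (81.2%), also against 41.1%. The share was 62.4% (CGR8) and 62.6% (R1) for the shared regions of 10 to 20 kb and 50.5% and 50.7% for shared regions under 10 kb. A wider region has more room for an overlap, and per length the order was different. The domains held 0.562 H3K4me3 regions per 10 kb in CGR8 and 0.588 in R1, close to the 0.552 and 0.558 of shared regions of 10 to 20 kb and below the 0.863 and 0.865 of shared regions under 10 kb.

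The number of H3K4me3 regions per domain was small. In CGR8, 287 domains held 1 H3K4me3 region, 174 held 2, 86 held 3 and 68 held 4 or more. In R1, 290 domains held 1, 157 held 2, 92 held 3 and 82 held 4 or more. The number was the same in both lines in 621 domains (81.2%), it differed by at most 1 in 754, and where it differed it was higher in CGR8 in 50 domains and in R1 in 94. Domains with more than 6 were rare, with 6 in each line.

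**Figure D1:**
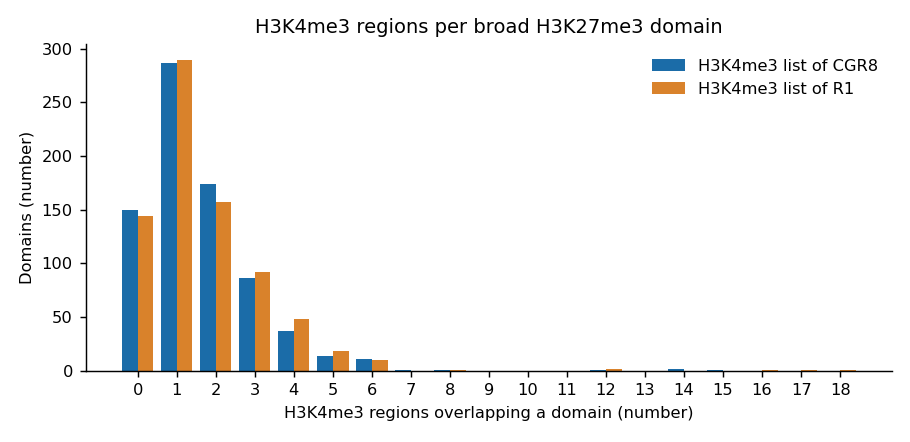
Number of domains (vertical axis) by the number of H3K4me3 regions that overlap them (horizontal axis), with the H3K4me3 list of CGR8 at the left and that of R1 at the right of each pair of bars. Both lines peak at 1 region per domain (287 and 290 domains) and 150 domains in CGR8 and 144 in R1 have none.

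Wider domains held more H3K4me3 regions, at nearly the same cover. The mean number was 1.20 in CGR8 and 1.25 in R1 for the 362 domains of 20 to 25 kb, and 4.54 in CGR8 and 5.06 in R1 for the 35 domains of 50 kb and more. H3K4me3 covered 10.2% of the length of the narrower class in CGR8 and 10.4% in R1, and 10.6% of the wider class in CGR8 and 11.6% in R1. Over all domains it was 10.3% in CGR8 and 10.9% in R1. Across the 765 domains the rank correlation of width with cover was 0.04 in CGR8 and 0.06 in R1, and that of width with number was 0.34 and 0.32. The bounds of all points come from the same H3K27me3 library.

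H3K4me3 cover followed the density of the H3K27me3 score. With the domains put into 4 classes by score per kb, the lowest class ran from 10.5 to 27.3. In this class 89 of 192 held H3K4me3 in CGR8 (46.4%) and 93 in R1 (48.4%), with a cover of 3.39% and 3.28%. In the highest class (60.5 to 135.7) 190 of 191 held it in CGR8 and 189 in R1, with a cover of 16.8% and 18.2%. The intermediate classes lay between them, at a cover of 7.92% and 10.96% in CGR8. Across the domains the rank correlation of score per kb with H3K4me3 cover was 0.67 for CGR8 H3K4me3 and 0.71 for R1 H3K4me3 (n = 765 domains). The R1 H3K4me3 list comes from another library and another line than the score.

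Within the domains, H3K4me3 lay towards the middle. With each domain divided into 10 parts of equal length, H3K4me3 covered 14.7% of the 2 middle parts and 3.86% of the 2 outer ones in CGR8, a ratio of 3.81. In R1 it covered 15.5% and 3.66%, a ratio of 4.24. The contrast was steeper in the shared regions of 10 to 20 kb, with 17.3% and 2.83% in CGR8 and 17.4% and 2.75% in R1. In kb from the domain edge, CGR8 H3K4me3 cover was 3.03% over the outermost 2 kb, 6.49% over the next 2 kb and 13.7% between 8 and 10 kb inside. Over the 20 kb outside the edges it stayed between 2.76% and 5.07%, against 2.33% of the chromosomes as a whole. H3K4me3 regions that crossed a domain edge were few, 54 of 1245 in CGR8 and 52 of 1304 in R1.

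**Figure D2:**
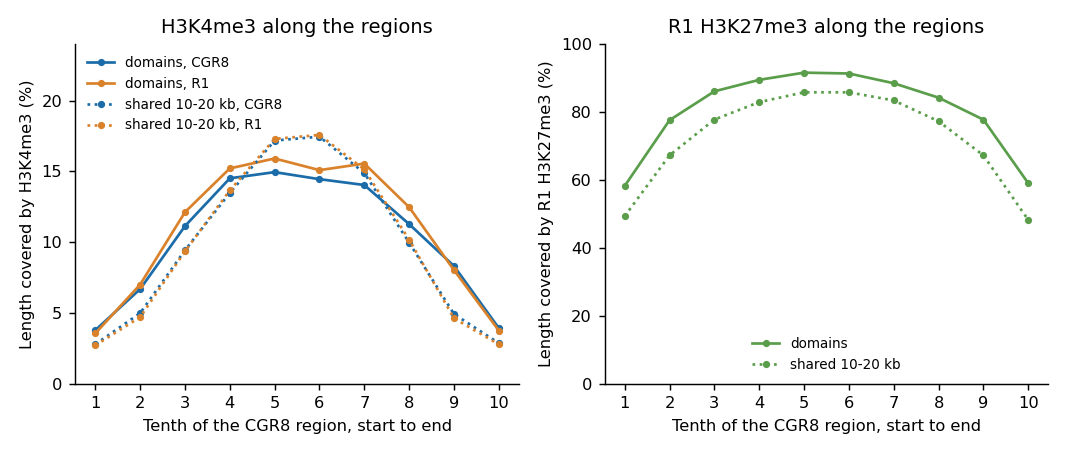
Percent of region length covered (vertical axes) in each of 10 equal parts of the region from start to end (horizontal axes), for H3K4me3 of both lines at the left and R1 H3K27me3 at the right. Solid lines are the 765 domains and dotted lines the 2852 shared regions of 10 to 20 kb. All curves are highest in the middle, where R1 H3K27me3 covers 91.4% of the domains, and lowest in the outer parts, where it covers 58.6%.

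Neighbouring H3K4me3 regions of 1 domain lay a few kb apart. The 328 domains with at least 2 in CGR8 gave 632 gaps, with a median of 4600 bp and the middle of the distribution from 2000 to 8200 bp. The 684 gaps in R1 had a median of 4200 bp. With the higher-scoring 50% of the H3K4me3 lists alone, the CGR8 median was 9200 bp, and leaving out a region between others lengthens the gap there. Centre to centre, the medians were 6300 bp in CGR8 and 6000 bp in R1. Among gaps under 20 kb, the medians were 4600 bp inside and 6800 bp outside H3K27me3 in CGR8, and 4000 bp inside and 7000 bp outside in R1. Inside, both H3K4me3 regions must meet the same domain, which favours short gaps, so these values do not show a difference in spacing. In CGR8 the median gap was 6100 bp in domains with 2 H3K4me3 regions, 4900 bp with 3, 3000 bp with 4 and 3800 bp with 5 or more. The R1 medians for these 4 classes were 6200, 4700, 2900 and 3800 bp, with lists that each had joined gaps of up to 200 bp.

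The H3K4me3 regions inside domains had a median width of 1600 bp in each line. It was 1800 bp in CGR8 and 1600 bp in R1 for those in other H3K27me3 regions, and 2200 bp and 2000 bp for those outside H3K27me3. Their median score lay near the middle of its list, at percentile 45.0 in CGR8 and 44.4 in R1, against 51.4 and 50.7 in other H3K27me3 regions and 50.1 and 51.0 outside. Their median score per kb was 143 in CGR8 and 149 in R1. It was 222 and 233 for H3K4me3 in other H3K27me3 regions and 160 and 188 for H3K4me3 outside H3K27me3. Most were found in both lines. Of the 1245 in CGR8, 1200 (96.4%) overlapped an R1 H3K4me3 region, and of the 1304 in R1, 1191 (91.3%) overlapped a CGR8 one. These shares were 94.1% and 94.6% in other H3K27me3 regions and 87.6% and 92.0% outside H3K27me3.

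The 5 domains above 100 kb differed in their H3K4me3. On chromosome 15 the domain from 102717401 to 102878400 (161 kb) held 15 H3K4me3 regions of CGR8 and 18 of R1, with a median gap of 7.7 kb in CGR8 and 6.4 kb in R1. The domain of chromosome 2 from 74474401 to 74622400 (148 kb) held 14 of CGR8 and 16 of R1, with median gaps of 5.6 kb and 4.8 kb. That of chromosome 6 from 52092201 to 52232800 (140.6 kb) held 14 of CGR8 and 17 of R1, at 7.2 kb and 5 kb, and that of chromosome 11 from 96127801 to 96248400 (120.6 kb) held 8 of CGR8 and 12 of R1, at 8.2 kb and 5.2 kb. In these 4 domains R1 had more H3K4me3 regions than CGR8, and shorter gaps. On chromosomes 15 and 11, part of the excess came from CGR8 regions that were cut into shorter regions in the R1 list. Such cuts also add short gaps. On chromosomes 2 and 6 the added R1 regions overlapped no CGR8 H3K4me3 region. The RefSeq gene table, which is on GRCm38.p6, has 11 Hox genes on chromosome 6, 10 on chromosome 11 and 9 each on chromosomes 15 and 2. Positions were not compared between builds, so no gene is assigned to a domain. The widest domain, on chromosome 7 from 150484401 to 150653400 (169 kb), held 4 H3K4me3 regions in each line over 4.62% of its length in CGR8 and 4.26% in R1.

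The next 5 by width differed as widely. A domain of chromosome 18 from 37862201 to 37929600 (67.4 kb) held 12 H3K4me3 regions in each line, with a median gap of 3.8 kb in both. Its length was under H3K4me3 to 24.04% in CGR8 and 24.3% in R1. It was the one domain under 100 kb among the 5 with most H3K4me3 regions, and it ended 0.8 kb from another domain. On chromosome 11, the domain from 115171001 to 115240200 (69.2 kb) held 2 H3K4me3 regions in CGR8, 47.6 kb apart, and 3 in R1. On chromosome 7, the domain from 150337801 to 150407600 (69.8 kb) held 1 in each line, over 2.01% of its length in CGR8 and 1.72% in R1. The domain of chromosome 5 from 33736801 to 33832600 (95.8 kb) held 3 in CGR8 and 2 in R1, and that of chromosome 1 from 78154001 to 78226400 (72.4 kb) held 3 in each.

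**Figure D3:**
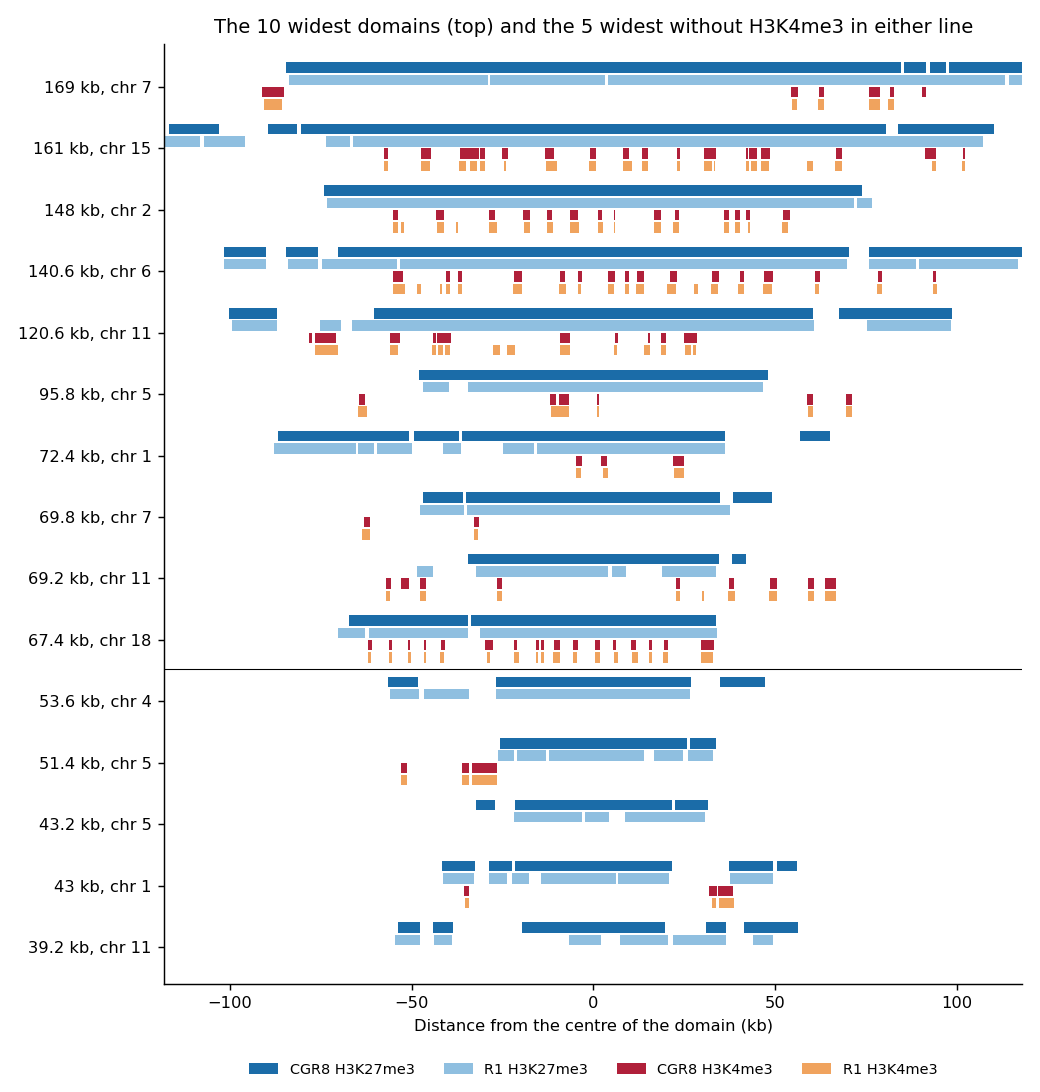
Called regions of the 4 libraries, drawn to scale around the centre of a domain (horizontal axis, kb), for the 10 widest domains above the line and the 5 widest without H3K4me3 in either line below it. The domain of chromosome 18 holds 12 H3K4me3 regions in 67.4 kb, while the domain of chromosome 7 with 169 kb holds 4.

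Domains with no H3K4me3 region in either line numbered 135 and spanned 3.399 Mb. Another 9 held H3K4me3 in CGR8 alone and 15 in R1 alone. The domains without it had a median width of 23.2 kb, against 25.8 kb for the 606 with H3K4me3 in both lines, and a median score per kb of 21.04 against 44.4. R1 H3K27me3 covered 66.3% of their length, against 83.1%. Of the 135, 56 (41.5%) lay within 100 kb of another domain, against 173 of the 606 (28.5%). The nearest H3K4me3 region of either line was at a median distance of 33.4 kb. It lay within 10 kb of 28 of these domains and more than 50 kb from 55.

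The widest domain without H3K4me3 lay on chromosome 4 from 64890001 to 64943600 (53.6 kb) and was covered to 99.6% by a single R1 region. The next lay on chromosome 5 from 33881401 to 33932800 (51.4 kb, 89.5% in 4 R1 regions) and from 119496401 to 119539600 (43.2 kb, 88.0% in 3). The others lay on chromosome 1 from 90115201 to 90158200 (43 kb, 88.8% in 3) and on chromosome 11 from 96383601 to 96422800 (39.2 kb, 54.1% in 2). The first on chromosome 5 and the one on chromosome 11 belonged to the groups of domains described next.

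Domains lay near each other along the chromosomes. Another domain was found within 100 kb of 242 domains (31.6%), against 16.5% for all 14400 regions and 18.9% for shared regions of 10 to 20 kb. Within 50 kb these shares were 22.2% and 12.5% for domains and shared regions of 10 to 20 kb, and within 200 kb 40.5% and 26.3%. The median distance to the nearest other domain was 366.8 kb, against 749.1 kb for the distance of a shared region of 10 to 20 kb to a domain. Of the domains, 33 lay within 1 kb of another, where gaps of up to 600 bp had been joined in the calling. The surroundings were rich in H3K27me3 as well. Other CGR8 regions covered between 22.3% and 29.3% of each 2 kb step from 2 to 20 kb outside the domain edges, and between 17.1% and 22.02% around the shared regions of 10 to 20 kb.

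**Figure D4:**
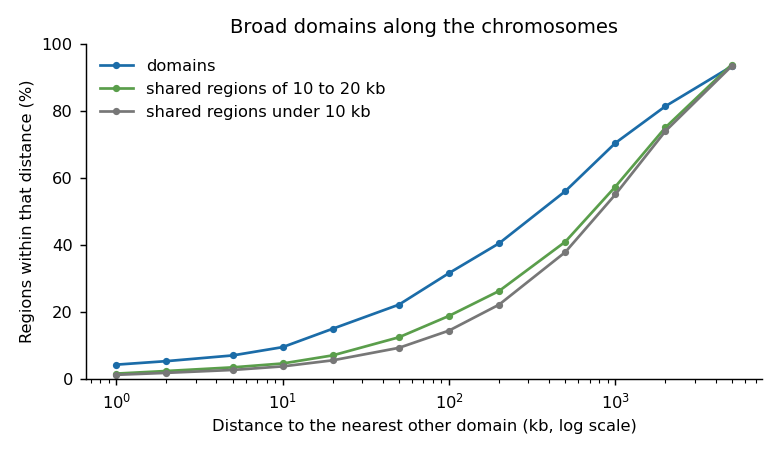
Percent of regions (vertical axis) whose nearest domain, other than themselves, lies within a given distance (horizontal axis, kb, log scale). The curve of the 765 domains runs above those of the shared regions up to 2000 kb, with 31.6% against 18.9% (10 to 20 kb) and 14.5% (under 10 kb) at 100 kb, and meets them at 5000 kb.

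Wide domains had near neighbours more often. The share with another domain within 100 kb was 26.0% for domains of 20 to 25 kb, 29.8% for 25 to 30 kb, 40.1% for 30 to 50 kb and 57.1% (20 of 35) from 50 kb up. Of the 2481 windows of 1 Mb, 521 held a domain and 58 held 3 or more. These 58 windows held 210 domains (27.5%), and the fullest held 10. The variance of the number per window was 1.76 times its mean for domains. It was 2.02 times the mean for the more numerous shared regions of 10 to 20 kb. This ratio depends on the number of regions per window, so it does not rank the sets by clustering.

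Linking domains less than 100 kb apart gave 96 groups with 242 domains, of which 60 were pairs and 36 held 3 to 5 domains. The 2 groups of 5 lay on chromosome 5 from 147989001 to 148195000 and on chromosome 4 from 153154001 to 153519800. In the group on chromosome 5, 61.4% of the 206 kb lay in domains, with 7 H3K4me3 regions in them in CGR8 and 10 in R1. In that on chromosome 4, domains made up 38.5% of 365.8 kb and held 3 H3K4me3 regions in each line, while the whole stretch held 11 in CGR8 and 9 in R1. The 3 groups of 4 domains with the highest summed score lay on chromosome 11 from 96021801 to 96422800, on chromosome 5 from 33736801 to 34077200 and on chromosome 8 from 123393001 to 123656800. The group on chromosome 11 surrounds the 120.6 kb domain. H3K27me3 took up 77.2% of its 401 kb in CGR8 and 67.2% in R1, and 2 of its 4 domains held no CGR8 H3K4me3. The group on chromosome 5 took in the domain of 95.8 kb, and its 4 domains held 6 H3K4me3 regions in each line. The 4 domains of the group on chromosome 8, none wider than 35.6 kb, held 7 in each line.

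Chromosomes differed in their share of domains. Domains made up 6.64% of the H3K27me3 regions of chromosome 2 (75 of 1129) and 6.63% of those of chromosome 12 (40 of 603), but 2.86% on chromosome 10 (21 of 735) and 3.53% on chromosome 16 (16 of 453). Near neighbours were most frequent on chromosome 4, where 33 of 61 domains had another within 100 kb, while none of the 24 on chromosome 14 did. The share with H3K4me3 in CGR8 ran from 70.0% on chromosome 9 to 90.3% on chromosome 18.

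R1 H3K27me3 covered 80.4% of the length of the domains, with a median of 82.4% per domain. The shared regions of 10 to 20 kb were covered to 72.5% and shared regions under 10 kb to 80.2%. R1 covered 58 domains in full (7.58%), against 13.4% of all 14400 regions. It covered less than 50% of 75 domains (9.80%), against 40.3% of all regions. All regions include those without any R1 region, which the rule kept out of the domains. Among shared regions of 10 to 20 kb, 9.43% were covered in full and 17.9% to less than 50%. For shared regions under 10 kb these shares were 26.6% and 7.47%, so the 9.80% of the domains lay between the 2 shared classes. A single R1 region met 447 domains, 2 met 248, 3 met 63 and 4 met 7, so 318 domains (41.6%) were split, against 5.38% of all 14400 regions. A wider region has more room for a split, and 12.6% of the shared regions of 10 to 20 kb were split. With the higher-scoring 50% of each H3K27me3 list alone, 23.4% of the 728 domains then left were split. This choice also removed R1 regions, so fewer pieces could be counted. An R1 region of at least 20 kb met 353 domains. There were 11 R1 regions that each met 2 domains. R1 regions that joined a domain to a narrower CGR8 region are not in this count, so it cannot be compared with the number of splits.

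The splits were narrow. The 395 gaps between R1 regions inside domains had a median of 1000 bp, and 229 of them (58.0%) were 800 or 1000 bp long, the 2 shortest lengths on the 200 bp grid that were not joined. Only 37 were longer than 5 kb, and the longest was 22.6 kb. Of the length not covered in R1, 4.36 Mb in all, gaps made up 0.814 Mb and the edges 3.55 Mb (81.3%). R1 stopped short of 984 of the 1530 domain edges, by a median of 2400 bp, reached beyond 431 by a median of 1200 bp, and ended at the same position at 115. The bounds were set by wide CGR8 regions and the CGR8 list covers more in all, and the shortfall in R1 cannot be told apart from this choice. In the other direction, 428 R1 regions of at least 20 kb were found in CGR8, which covered 94.4% of their length and split 94 of them (21.96%).

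H3K4me3 was more frequent where both lines had H3K27me3. Of the domain length that R1 also covered, 12.5% was under CGR8 H3K4me3 and 13.2% under R1 H3K4me3, against 1.51% and 1.49% of the length that R1 did not cover. In the gaps inside domains it was 4.25% and 4.23%, and 38 of the 395 gaps (9.62%) held H3K4me3 of CGR8, as many as held H3K4me3 of R1. H3K4me3 and R1 cover were both highest in the middle of domains, and their relation at equal position was not tested.

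**Figure D5:**
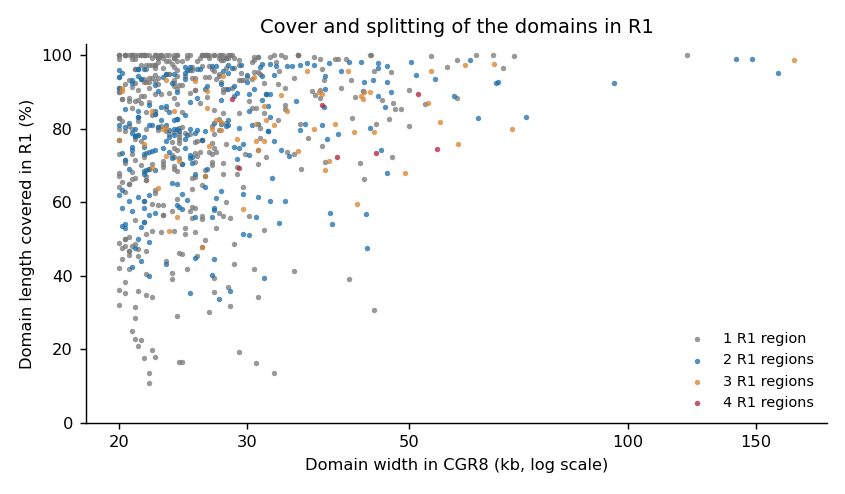
Percent of each domain covered by R1 H3K27me3 (vertical axis) by its width in CGR8 (horizontal axis, kb, log scale), 1 point per domain, coloured by the number of R1 regions that meet it. No domain of 50 kb or more is covered to less than 50%, and 23 of these 35 are split.

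R1 covered a larger share of the length of wide domains and of those of high score per kb. It covered 75.5% of the length of domains of 20 to 25 kb and 93.2% of those of 50 kb and more. The share that was split was 34.5% in the first class and 65.7% in the second. Most uncovered length lay at edges (81.3%), and a given shortfall there is a larger share of a narrower domain. Over the outermost 2 kb, R1 covered 52.2% in the domains and 54.0% in the shared regions of 10 to 20 kb. Over the next 2 kb it covered 70.4% and 75.3%. By score per kb, R1 covered 61.9% of the length in the lowest of the 4 classes and 91.2% in the highest, and split 52.1% of the domains of the lowest and 22.5% of the highest. Split domains had a median score per kb of 33.7, against 44.4 for those in 1 R1 region, and a median width of 27 kb against 24.4 kb. H3K4me3 was found in 78.3% of the split and 81.9% of the unsplit domains in CGR8. The cover and the lowest scores of the H3K27me3 lists differ as given above, and their part in the splitting was not tested.

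The 5 domains with most R1 regions were each met by 4. On chromosome 6 the domain from 127073001 to 127118000 (45 kb) was covered to 73.3%, with gaps of 0.8 to 6.2 kb. On chromosome 2, the domain from 10257401 to 10312000 (54.6 kb) was covered to 74.4% and that from 180219201 to 180257200 (38 kb) to 86.3%. The others were the domain of 51.4 kb on chromosome 5 named above and a domain of chromosome 4 from 129833201 to 129873000 (39.8 kb, 72.4%). They held between 0 and 4 H3K4me3 regions in each line.

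The 5 least covered domains had 10.9% to 16.4% of their length in R1, in a single R1 region of 2400 to 5000 bp. They lay on chromosome 5 from 92787201 to 92809200 and from 107237801 to 107268600, on chromosome 12 from 100835201 to 100867800 and from 118474401 to 118498800, and on chromosome 4 from 29006601 to 29028600. Their score per kb was 15.9 to 21.3. One of them, the first on chromosome 12, held an H3K4me3 region, in both lines.

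Of the 26 domains of exactly 20000 bp, the 3 with the highest scores, on chromosome 5 from 75463601 to 75483600, on chromosome 14 from 33402401 to 33422400 and on chromosome 10 from 79760401 to 79780400, held 4, 2 and 3 H3K4me3 regions in CGR8 and were covered to 100%, 90% and 100% in R1. Of the 17 shared regions of 19800 bp, the 3 with the highest scores, on chromosome 15 from 85401001 to 85420800, on chromosome 2 from 158428601 to 158448400 and on chromosome 14 from 33261401 to 33281200, held 2, 2 and 1 and were covered to 73.7%, 98.99% and 89.9%.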

How the data were processed

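H3K27me3 and H3K4me3 ChIP-seq was analysed from 1 list of called regions per library (4 libraries), grouped by line and mark from the labels. The authors deposited a chromosome, start, end and score for each region. Positions are on mm9, and the software comprised SICER 1.1, which calls broad regions, Bowtie2 2.0.2 and bedtools 2.20.1, per the submitters' processing notes. Settings, any control library and read totals were not given in the sources used here. For the deposited score no formula is stated, and it was used only to rank or describe regions within its own list. The values show that H3K27me3 gaps of up to 600 bp and H3K4me3 gaps of up to 200 bp had been joined.

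Starts were counted from 1, and lengths include both end positions. Overlap meant at least 1 bp. Cover is called length, joined gaps included. With 1 library per line and mark there is no test. All values are descriptions of these 4 libraries, and regions are not replicates. Shares of domains carry 95% Wilson intervals of counting error only: 77.4% to 83.1% for domains with CGR8 H3K4me3, 28.4% to 35.0% for domains within 100 kb of another and 38.1% to 45.1% for domains split in R1. The intervals treat domains as independent, although 242 lay within 100 kb of another domain. The members, the classes and the alternatives were chosen with earlier results of these data known. Regions named by position followed a rule: the 10 widest, the 5 with most H3K4me3 regions, the 5 widest without H3K4me3 in either line, the 5 with most R1 regions, the 5 least covered in R1, the 5 groups of most domains, and 3 on each side of the width limit. The planned count of genes in domains was not made, because the only gene table in use follows GRCm38.p6, and builds were not mixed. The functions were tested on simulated lists. Python 3.11.15 was used with numpy 2.4.6, pandas 2.3.3, scipy 1.17.1 and matplotlib 3.10.9.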

Additional observations from a re-analysis of the deposited data

How the results depend on the processing

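No paired analysis was possible because each line and mark has 1 library. Of 69 values under 12 alternatives, 46 stayed close to the value reported and 23 moved. Close meant within the 95% interval for shares of domains and within 1.5 times for the others. The interval describes counting error, not the effect of processing, and the 1.5 times limit is wider, so the tally mixes unlike limits. Counted as close were 943 domains with H3K27me3 regions less than 1000 bp apart merged. So was an H3K4me3 cover of 14.4% with domains set in R1, against 10.3%. Some of the 46 could hardly move, as with the left-out stretches kept in, which gave 767 domains. The number of domains, 765, was 212 at 30 kb, 1585 at 15 kb and 428 with domains set in R1. The share with H3K4me3, 80.4%, was 88.7% at 30 kb, 73.9% at 15 kb, 90.4% set in R1, 83.6% where R1 covered at least 50% of the domain, 83.9% with the higher-scoring 50% of the H3K27me3 lists and 54.0% with the higher-scoring 50% of the H3K4me3 lists. The last of these also gave a median gap between H3K4me3 regions of 9200 bp and a cover of 5.53%. The median number of H3K4me3 regions, 1, was 2 at 30 kb and 2 set in R1. The share of domains within 100 kb of another, 31.6%, was 20.3% at 30 kb, 40.6% at 15 kb and 24.5% set in R1; it was 22.2% within 50 kb and 40.5% within 200 kb. The share of split domains, 41.6%, was 57.1% at 30 kb, 31.9% at 15 kb, 21.96% set in R1, 33.1% with H3K27me3 regions less than 1000 bp apart merged and 23.4% with the higher-scoring 50% of the H3K27me3 lists. A different width limit or distance changes the number of domains or the number counted as near by its own construction. Leaving out H3K4me3 regions can only lower the share of the same domains that hold 1 and the length covered. Leaving out or merging R1 H3K27me3 regions likewise leaves fewer pieces to count as splits. What else contributed to these moves, and the cause of the others, was not tested. Cover in the other line stayed between 77.3% and 94.4%.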
